A study of Mus musculus with 6 samples.

Results

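The fatty acid desaturases and elongases are the enzymes that set the length and the number of double bonds of a cell's fatty acids. A fixed list of 10 gene symbols was looked up in the gene column of the deposited table, and 8 of them had a row among 12016: the stearoyl-CoA desaturase genes Scd1 and Scd2, the fatty acid desaturase genes Fads1, Fads2 and Fads3, the elongase genes Elovl1 and Elovl5, and Hsd17b12. All 8 belonged to the 11478 genes that the authors tested. Elovl6 and Elovl7 had no row and were not analysed here. RNA of pancreas was sequenced from male mice aged 3 weeks, 3 of them wild type and 3 carrying the labelled genotype OCar1-/-, a loss of both copies of OCaR1 (Tmem63a, a membrane protein of acidic organelles, a link between the names that is background knowledge). The strain field of both groups reads C56Bl6/N and the protocol names C57Bl6/N for the wild type; no treatment was given, and no promoter, Cre driver or founder line is named in the labels. Each genotype is represented by 1 FPKM value per gene (fragments per kilobase of transcript, scaled to the mapped fragments of the library), which the authors computed from 3 mice together, so no value, SD or n of a single mouse stands behind any level below. "Called" means a q-value under 0.05 in the authors' deposited table, and fold changes are knockout over wild type.

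The pathway begins with palmitate and stearate. Stearoyl-CoA desaturases place the first double bond in these saturated chains and so make palmitoleate and oleate, the main monounsaturated acids of membranes and stored fat. Elongases carry out the condensing step that lengthens a chain, and Hsd17b12 encodes the ketoacyl-CoA reductase that follows it. Fads2 and Fads1 encode the desaturases that act in turn on dietary linoleic and linolenic acid to give arachidonic and eicosapentaenoic acid. Several of these genes are known targets of the sterol-regulated factors SREBP. Acinar cells, which make up most of the pancreas, need a large membrane system for secretion, while fat cells and macrophages are other known sites of high desaturase expression.

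Scd1 and Scd2 are neighbours on chromosome 19 with closely related coding sequences, so the first question is whether reads of 50 bases can tell them apart. The pair of lines below shows the coding stretch around the longest run that both share, from a GENCODE M21 coding transcript of Scd1 (GRCm38, minus strand, exon 4 at chr19:44401693-44401865 and exon 5 at chr19:44400281-44400374) and one of Scd2 (plus strand, exon 4 at chr19:44299642-44299814 and exon 5 at chr19:44301212-44301305). Capitals mark the bases at which they differ.
Scd1: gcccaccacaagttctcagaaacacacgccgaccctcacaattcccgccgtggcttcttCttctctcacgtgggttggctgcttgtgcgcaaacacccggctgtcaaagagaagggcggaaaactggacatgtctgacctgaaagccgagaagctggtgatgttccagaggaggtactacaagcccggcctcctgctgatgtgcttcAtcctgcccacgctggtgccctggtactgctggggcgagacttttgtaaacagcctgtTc
Scd2: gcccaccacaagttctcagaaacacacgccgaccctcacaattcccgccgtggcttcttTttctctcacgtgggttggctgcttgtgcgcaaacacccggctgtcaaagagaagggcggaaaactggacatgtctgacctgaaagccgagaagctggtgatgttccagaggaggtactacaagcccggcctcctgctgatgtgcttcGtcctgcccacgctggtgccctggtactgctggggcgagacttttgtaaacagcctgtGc
Within these 267 bases the genes differed at 3, and the longest identical run was 147 bases. This stretch is an extreme: of 4841 different stretches of 50 bases in the annotated protein-coding transcripts of Scd1, 145 (3.00%) also occurred in Scd2, and 223 (4.61%) in any of Scd2, Scd3 and Scd4. For Scd2 the share found in another family member was 3.79% of 5406. Reads from these stretches could be divided between the genes, and the treatment of such reads is not stated in the labels. Scd3 and Scd4 had no row in the table and were not analysed here.

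Fads2 and Fads3 lie next to each other on the same chromosome and are further apart in sequence. The lines below show the same kind of window for Fads2 (minus strand, exons 9 to 11 between chr19:10064740-10066273) and Fads3 (plus strand, exons 9 to 11 between chr19:10056066-10056496), again with differing bases in capitals.
Fads2: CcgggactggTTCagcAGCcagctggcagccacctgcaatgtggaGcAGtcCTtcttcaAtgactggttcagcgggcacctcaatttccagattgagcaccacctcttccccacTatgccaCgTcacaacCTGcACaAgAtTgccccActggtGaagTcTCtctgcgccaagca
Fads3: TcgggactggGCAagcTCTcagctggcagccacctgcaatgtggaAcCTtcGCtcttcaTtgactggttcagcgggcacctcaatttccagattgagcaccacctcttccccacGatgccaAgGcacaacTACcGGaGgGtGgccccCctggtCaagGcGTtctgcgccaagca
Here 29 of 174 bases differed and the longest shared run was 54 bases. Of 3184 stretches of 50 bases in Fads2, 5 (0.157%) were shared with Fads3. Fads1, Elovl1, Elovl5 and Hsd17b12 shared 0 such stretches with any listed family member.

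Tmem63a stood at 4.91 FPKM in the knockout against 18.3 FPKM in the controls, so 26.8% of the wild-type level remained (the authors' deposited table gives q = 0.00152), and a gene-level value does not show from which exons. The acinar markers ranged widely in level: the carboxypeptidase gene Cpa1 had 21972 FPKM in the knockout against 23509 FPKM in the controls, and Bhlha15, a transcription factor gene of secretory cells, had 64.3 and 68.6 FPKM. Of 13 tested, 3 were called lower in the authors' deposited table and 0 higher. The elastase gene Cela1 fell from 37728 to 16591 FPKM, the lipase gene Pnlip from 15748 to 7662 FPKM, and Ptf1a, which encodes an acinar transcription factor, from 40.9 to 27.2 FPKM. The 13 acinar markers with a row summed to 27.0% of all FPKM in the knockout and 30.7% in wild type.

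The knockout pancreas had more RNA of the stearoyl-CoA desaturases, of Fads3 and of Elovl5, while Fads1 and Fads2 had nearly the same level in both genotypes. The authors' deposited table called 4 of the 8 members higher, against a background of 4.20% of all tested genes called higher (482 of 11478), and 0 lower, against 3.35% (384 genes). A further member, Elovl1, had an unadjusted p under 0.05 in that table. The median log2 fold change of the 8 members was 0.43, beside -0.03 over all tested genes with a fold change. In bulk RNA, a change in the number of cells of a type and a change in RNA per cell cannot be told apart, and this holds for every value below.

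**Figure D1:**
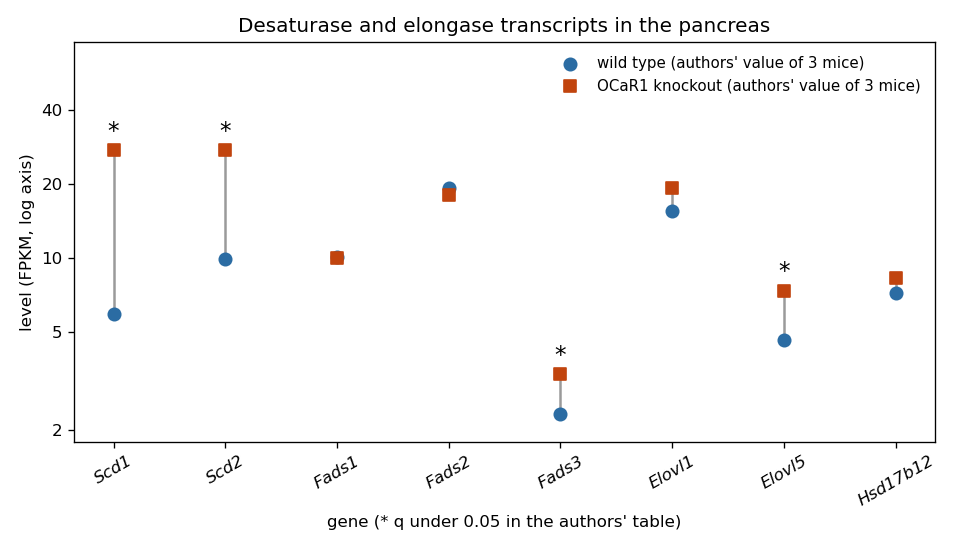
Level of each member (FPKM, log axis) in wild type (blue circles) and OCaR1 knockout (orange squares); each symbol is the authors' single value for 3 mice, and a star marks q under 0.05 in their table. Scd1 and Scd2 stand apart in wild type, at 5.95 and 9.90 FPKM, and reach nearly the same level in the knockout, at 27.5 and 27.4 FPKM.

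Scd1 (ENSMUSG00000037071, protein-coding, GRCm38 chromosome 19, 44394451 to 44407709, minus strand) encodes the main stearoyl-CoA desaturase of liver and fat. Its level was 27.5 FPKM in the knockout against 5.95 FPKM in the controls. The 2 values differed by 21.5 FPKM, a log2 fold change of 2.21, and the authors' deposited table gives q = 0.00152. In wild type 58.1% of all rows in the table lay below Scd1, and in the knockout 90.2% did. Among all 476 called-higher genes with a fold change, Scd1 had rank 17 by the size of its rise. Among the 229 of these with at least 5 FPKM in either genotype, it had rank 6. A called-higher gene has its larger value in the knockout, so this level requirement selects on the knockout.

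Scd2 (ENSMUSG00000025203, protein-coding, chromosome 19, 44293676 to 44306864, plus strand) encodes the isoform known as the predominant stearoyl-CoA desaturase of mouse brain and of early postnatal life. Its level was 27.4 FPKM in the knockout against 9.90 FPKM in the controls, a log2 fold change of 1.47, and the authors' deposited table gives q = 0.00152. It had rank 45 among the 476 called-higher genes and rank 14 among the 229 with at least 5 FPKM. In these group values Scd1 made up 37.5% of the summed FPKM of both genes in wild type and 50.0% in the knockout. Their sum was 15.8 FPKM in wild type against 54.9 FPKM after loss of OCaR1, a ratio of 3.46. No value per mouse was available, so whether Scd1 rose more than Scd2 was not tested.

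The Fads genes act on polyunsaturated chains. Fads2 (ENSMUSG00000024665, chromosome 19, 10064164 to 10101503, minus strand), the desaturase that opens the conversion of linoleic and linolenic acid, had 18.0 FPKM in the knockout against 19.3 FPKM in the controls (log2 fold change -0.10; the authors' deposited table gives q = 0.768). Fads1 (ENSMUSG00000010663, chromosome 19, 10182888 to 10196870, plus strand), which acts after it, had 10.05 FPKM in the knockout against 10.11 in the controls (log2 fold change -0.01; the authors' deposited table gives q = 0.987). This value turns to 0.02 when values are centred on the median of all tested genes. The ratio of Fads2 to Fads1 was 1.796 in the knockout and 1.91 in wild type.

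Fads3 (ENSMUSG00000024664, chromosome 19, 10041548 to 10059671, plus strand), a desaturase reported to act on sphingoid bases, was the member with the lowest level. It had 3.40 FPKM in the knockout against 2.33 FPKM in the controls, a 1.46-fold rise, and the authors' deposited table gives q = 0.00152. Because 394 genes share the smallest p of that table, 5e-05, Scd1, Scd2 and Fads3 carry the same q and cannot be ranked by it. The authors' test statistic, with its sign turned to knockout over wild type, was 7.71 for Scd1, 5.91 for Scd2 and 1.71 for Fads3. Summed over the 3 Fads genes, the level was 31.5 FPKM in the knockout against 31.7 FPKM in the controls. The summed Scd level was 0.4996 times that Fads sum in wild type and 1.74 times in the knockout.

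**Figure D2:**
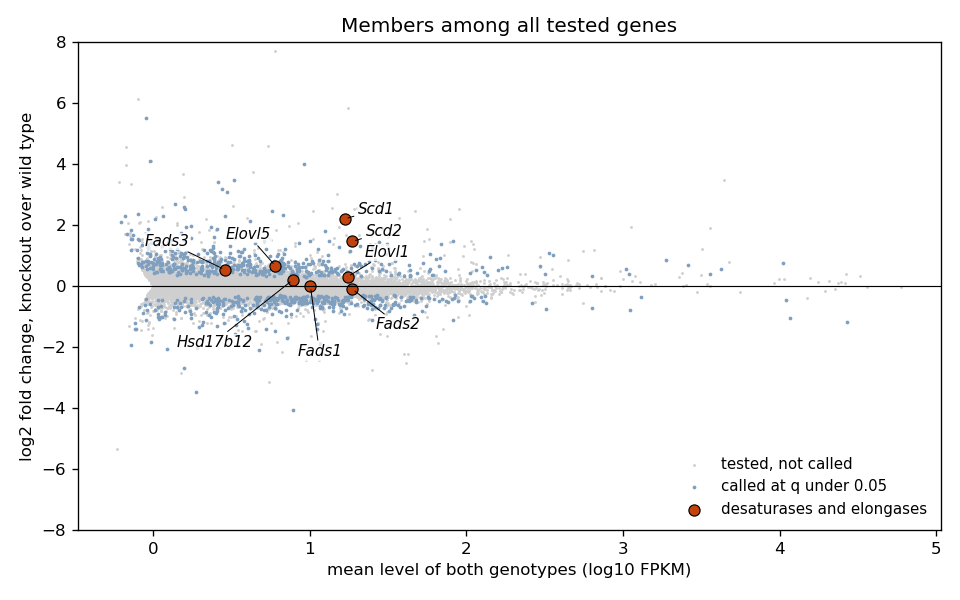
Log2 fold change of knockout over wild type against mean level (log10 FPKM) for all tested genes with a fold change (grey, not called; blue, called at q under 0.05 in the authors' table) and for the 8 members (orange). Scd1 and Scd2 lie far above most genes of like level, at 2.21 and 1.47, and Fads1 and Fads2 lie at the centre line.

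Of the elongases, Elovl5 (ENSMUSG00000032349, chromosome 9, 77917364 to 77984519, plus strand), which lengthens polyunsaturated chains, was called. Its level was 7.38 FPKM in the knockout against 4.64 FPKM in the controls, a 1.59-fold rise, and the authors' deposited table gives q = 0.0299. Elovl1 (ENSMUSG00000006390, chromosome 4), which makes saturated and monounsaturated very long chains, had the higher level of this pair in both genotypes. It stood at 19.3 FPKM in the knockout against 15.6 FPKM in the controls, with q = 0.200 (p = 0.0287) in the authors' deposited table. The table gives Elovl1 an interval, 118428093 to 118437352, that it shares with Cdc20, which overlaps it on the other strand, and reads of both genes could be divided between them. Cdc20, a regulator of cell division, itself had 2.82 FPKM in the knockout against 2.39 FPKM in the controls. Elovl5 made up 27.7% of the sum of Elovl1 and Elovl5 in the knockout and 23.0% in wild type.

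Hsd17b12 (ENSMUSG00000027195, chromosome 2, 94032689 to 94157964, minus strand), the reductase of the elongation cycle, had 8.33 FPKM in the knockout against 7.22 FPKM in the controls, and the authors' deposited table gives q = 0.390. The summed level of the 8 members was 121 FPKM in the knockout against 74.99 FPKM in wild type. Of that difference of 46.4 FPKM, Scd1 and Scd2 made up 84.2%. In wild type the order of levels ran from Fads2 and Elovl1 through Fads1, Scd2, Hsd17b12, Scd1 and Elovl5 down to Fads3, and in the knockout Scd1 and Scd2 came ahead of Elovl1 and Fads2. Without a spread between mice, it is not known which neighbours in these orders differ.

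The tested genes around Scd1 and Scd2 were too few for a count of calls to say much. Over all tested genes, 4.20% were called higher and 3.35% lower. Within 250 kb of the pair, which lie 87.6 kb apart, 6 other genes were tested, and Cuffdiff in the authors' deposited table called 0 of them, while 1 had an unadjusted p under 0.05. That gene is Bloc1s2, a subunit gene of a complex of lysosome-related organelles, with 1.19 FPKM in the knockout against 1.68 FPKM in the controls (the authors' deposited table gives q = 0.253). The log2 fold changes of the 6 ran from -0.86 to 0.00. Erlin1, which encodes an endoplasmic reticulum protein, had the lowest value, with 8.76 FPKM in the knockout against 15.9 FPKM in the controls (the authors' deposited table gives q = 0.542).

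Around the Fads genes, the number tested within the same distance was also small, 7 others. Cuffdiff called 0 of them, beside 4.20% of all tested genes called higher and 3.35% lower. Of the 7, 1 had an unadjusted p under 0.05. That gene is Fth1, the ferritin heavy chain gene, with 268 FPKM in the knockout against 327 FPKM in the controls (the authors' deposited table gives q = 0.0533). Fads3 and Fads2 lie 4.49 kb apart in the table's intervals, and of this close pair Fads3 was called and Fads2 was not. Whether their changes differ was not tested.

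**Figure D3:**
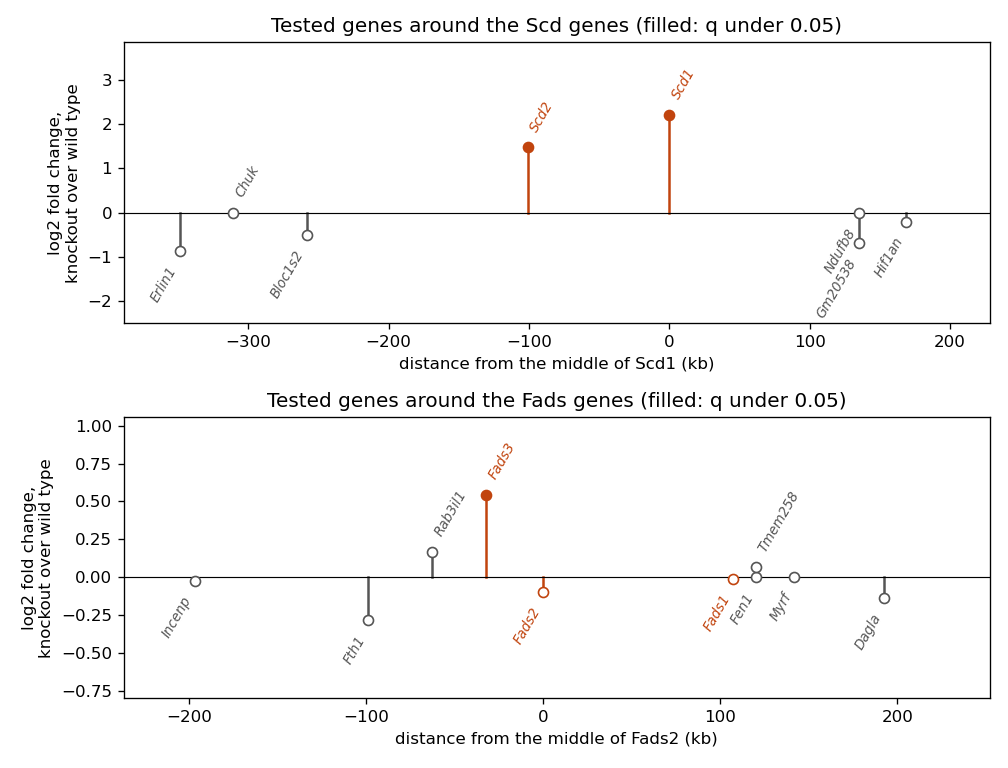
Log2 fold change, knockout over wild type, of each tested gene within 250 kb of the Scd genes (top) and of the Fads genes (bottom), against the distance in kb between gene middles; members are orange and filled symbols have q under 0.05 in the authors' table. The 6 other genes around Scd1 and Scd2 lie between -0.86 and 0.00, and in the lower panel Fads3 alone is filled.

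Promoter windows of 300 bases (250 before to 50 after the annotated start, RefSeq, GRCm38.p6) were given for 5 of the 8 members, without Scd1, Scd2 and Fads1. They are shown for both called members that have one, Fads3 and Elovl5, and for Fads2, the uncalled neighbour of Fads3. Capitals mark matches, on either strand, of the NF-Y box CCAAT and the E-box CACGTG.
Fads3 (chr19:10041298-10041597, plus strand): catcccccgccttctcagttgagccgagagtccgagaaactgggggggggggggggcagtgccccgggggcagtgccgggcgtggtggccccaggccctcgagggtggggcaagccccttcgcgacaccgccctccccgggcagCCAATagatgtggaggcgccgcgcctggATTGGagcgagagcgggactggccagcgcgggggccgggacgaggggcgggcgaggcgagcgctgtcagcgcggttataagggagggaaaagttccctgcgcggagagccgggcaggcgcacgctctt
Elovl5 (chr9:77917115-77917414, plus strand): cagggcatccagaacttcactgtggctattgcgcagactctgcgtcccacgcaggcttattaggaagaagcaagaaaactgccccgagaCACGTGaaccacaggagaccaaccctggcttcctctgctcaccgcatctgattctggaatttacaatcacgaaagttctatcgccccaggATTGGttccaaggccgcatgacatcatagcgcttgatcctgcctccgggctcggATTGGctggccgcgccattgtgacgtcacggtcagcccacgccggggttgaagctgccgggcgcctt
Fads2 (chr19:10101454-10101753, minus strand): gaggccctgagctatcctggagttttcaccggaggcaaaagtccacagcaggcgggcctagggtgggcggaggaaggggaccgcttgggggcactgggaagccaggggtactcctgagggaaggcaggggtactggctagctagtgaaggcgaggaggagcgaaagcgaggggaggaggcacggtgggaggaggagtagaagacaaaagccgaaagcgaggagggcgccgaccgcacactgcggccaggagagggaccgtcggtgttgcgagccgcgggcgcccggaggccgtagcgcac
CCAAT matched 2 times in the Fads3 window, starting 106 and 78 bases upstream of the gene start, and 2 times in the Elovl5 window, 71 and 17 bases upstream. It matched 0 times in the Fads2 window, 2 times in that of the uncalled Hsd17b12, and in 1 of the windows of the uncalled Elovl1. At least 1 match was found in 37.4% of all 32851 windows of this length. The E-box matched once, in Elovl5, 161 bases upstream (7.15% of all windows). The sterol element core TCACNCCAC, with N for any base, matched in none of these windows and in 1.24% of all. The CCAAT and E-box matches in the Elovl5 window do not overlap one another, and no match says only that the letters are not in this window.

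Genes that feed the desaturases with substrate were called as well. Of 12 tested genes of palmitate supply, 4 had a call of higher and 1 of lower according to the authors' deposited table. Over all tested genes these shares were 4.20% and 3.35%. The median log2 fold change of the list was 0.54. Thrsp, a lipogenic regulator of liver and fat, was 5.59-fold higher (9.77 and 1.75 FPKM without and with OCaR1). Me1, the malic enzyme that supplies NADPH, was 3.92-fold higher (2.78 and 0.709 FPKM), and the fatty acid synthase gene Fasn was 2.23-fold higher (25.0 and 11.2 FPKM). Every row exceeds 1.00 FPKM in a genotype, so Me1, 1 of the 4 calls of higher, has a row only through the knockout. Mlycd, which encodes the enzyme that degrades malonyl-CoA, fell 1.35-fold, from 10.7 to 7.93 FPKM. The other call is Mid1ip1, a partner of acetyl-CoA carboxylase, named after its value was seen, with 30.2 FPKM against 19.99 FPKM in wild type and an interval shared with another row. The ratio of Scd1 to Fasn was 1.10 in the knockout and 0.531 in wild type.

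None of the partner enzymes was called, in lists of 3 and 5 tested genes. Over all tested genes, 4.20% were called higher and 3.35% lower, so lists this short can hold few calls. Of 3 tested genes of the other steps of the elongation cycle, 0 were called by Cuffdiff and 0 had an unadjusted p under 0.05: the reductase gene Tecr had 27.2 FPKM in the knockout against 29.1 FPKM in the controls, and the dehydratase genes Ptpla and Ptplad1 had log2 fold changes of 0.05 and 0.03. Of 5 tested genes of the cytochrome b5 chain, which passes electrons to desaturases, 0 were called by Cuffdiff and 0 had an unadjusted p under 0.05 (median log2 fold change -0.10). The main carrier gene, Cyb5a, had 84.8 FPKM in the knockout against 90.9 FPKM in the controls, and Cyb5b, Cyb5r1 and Cyb5r3 had log2 fold changes of -0.13, -0.35 and -0.10. Both other tested desaturase genes were uncalled, with 0 at an unadjusted p under 0.05: Degs1, which makes ceramide from dihydroceramide, had 22.3 and 20.7 FPKM, and Fads6 had 2.94 and 3.19 FPKM without and with OCaR1.

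Regulators of lipogenesis were called in both directions. Of 21 tested, 3 had a call of higher and 1 of lower according to the authors' deposited table (median log2 fold change 0.03). The shares over all tested genes were 4.20% higher and 3.35% lower. Insig1, which retains the SREBP complex in the endoplasmic reticulum and is itself a SREBP target, rose from 17.2 to 30.5 FPKM (1.77-fold). Srebf2, the gene of the SREBP that favours sterol synthesis, rose 1.33-fold, and Pparg, the fat cell regulator, rose by 0.68 on the log2 scale, from 1.03 to 1.65 FPKM. Scap, which encodes the escort protein of SREBP, fell 1.42-fold, from 9.96 to 6.995 FPKM. Srebf1, named after its value was seen because its product is the known activator of Scd1, had 22.7 FPKM in the knockout against 13.9 FPKM in the controls and was uncalled (the authors' deposited table gives q = 0.176, in an interval shared with another row).

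Of 19 tested genes of cholesterol synthesis and uptake, 7 had a call of higher and 0 of lower according to the authors' deposited table. The shares over all tested genes were 4.20% and 3.35%. The median log2 fold change of the list was 0.50. Sqle, which encodes squalene epoxidase, rose 1.596-fold (4.45 and 2.79 FPKM without and with OCaR1), and Hmgcs1, which encodes an early enzyme of the sterol pathway, rose 1.40-fold.

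Genes that use the products of desaturation and elongation were called in both directions, with Dgat2 as the only call of higher. Over all tested genes, 4.20% were called higher and 3.35% lower. Of 12 triglyceride synthesis genes, the authors' deposited table called Dgat2, the last acyltransferase, 1.72-fold higher and Gpam, the mitochondrial enzyme of the entry step, 1.5-fold lower, while Lpin1 and Agpat3 had log2 fold changes of 0.33 and -0.34 without a call. Of 7 acyl-CoA synthetase and fatty acid transport genes, 1 was called, Slc27a1, which fell 1.28-fold. The uncalled Slc27a4, Slc27a3 and Acsl4 of this list had log2 fold changes of -0.25, 0.54 and 0.36. Of 8 peroxisomal genes, which shorten very long chains in the last step towards docosahexaenoic acid, 2 were called lower and 0 higher by Cuffdiff, per the authors' deposited table. The called genes were Abcd3, a peroxisomal transporter gene (from 16.04 FPKM to 10.9 FPKM), and the thiolase gene Acaa1a (28.2 FPKM in wild type, 18.9 FPKM without OCaR1; other rows have the same interval). The uncalled Hsd17b4, an enzyme gene of the same pathway, stood at -0.10 on the log2 fold change scale.

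Neither chain remodelling of phospholipids nor ceramide synthesis held a call by Cuffdiff. These lists are short, with 8 and 6 tested genes, beside 4.20% of all tested genes called higher and 3.35% lower. Of 8 remodelling genes, 1 had an unadjusted p under 0.05, Lclat1, with 3.46 FPKM in the knockout against 4.86 FPKM in the controls; Lpcat1, Pla2g4a and Pla2g6 had log2 fold changes of 0.44, -0.71 and -0.29. Of 6 ceramide genes, 0 had an unadjusted p under 0.05, and Sptlc1, Cers5, Cers4 and Sptlc2 had log2 fold changes of 0.21, 0.35, 0.26 and 0.09. The medians of the acyl-CoA synthetase, remodelling, triglyceride, ceramide and peroxisomal lists were 0.05, 0.01, 0.06, 0.15 and -0.06.

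**Figure D4:**
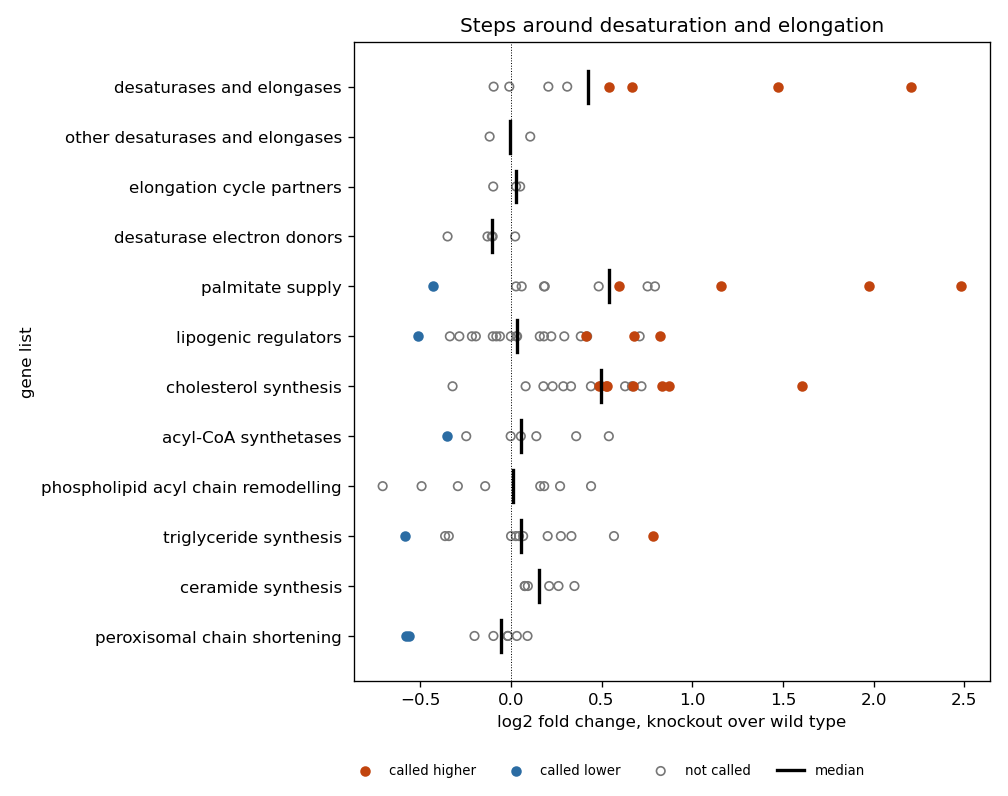
Log2 fold change, knockout over wild type, of the members (top row) and of the tested genes of each list of neighbouring steps; orange and blue points are called higher and lower in the authors' table, open points are not called and black bars are medians. The medians of the palmitate supply and cholesterol lists, 0.54 and 0.50, lie beside the members' 0.43, and those of the elongation partners and electron donors lie at 0.03 and -0.10.

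Markers of several other cell types were called higher in the same knockout group, and their part in the rise of the members was not tested. Over all tested genes, 4.20% were called higher and 3.35% lower. All 9 tested fat cell markers had a higher level in the knockout and 6 of them were called in the authors' deposited table. Their summed level was 216 FPKM in the knockout against 105 FPKM in the controls (2.06-fold), with log2 fold changes from 0.32 (Lpl) to 2.30 (Retn) and a median of 1.06. None was listed at 0; Lep, Plin4, Cidea and Pck1 had no row and were not analysed here. The ratio of Scd1 to Adipoq, the adiponectin gene, was 2.98 in the knockout and 1.35 in wild type, and that of Scd2 to Adipoq was 2.98 and 2.24. Scd1 to Fabp4, another fat cell gene, was 0.312 and 0.127. Both desaturases thus had a larger fold change than either of these markers, while Retn had a larger one than Scd1. Retn stood at 0.963 FPKM in wild type and 4.74 FPKM in the knockout. Every row exceeds 1.00 FPKM in a genotype, so Retn has a row only through the knockout, and its rise is no separate support. Cfd, Car3 and Cidec were 2.73-, 2.63- and 2.49-fold higher, close to the 2.77-fold of Scd2. Lpl, Lipe and Plin1 were 1.25-, 1.32- and 1.41-fold higher. Whether any of these fold changes differ was not tested.

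Of 13 macrophage markers, 11 had a call of higher and 0 of lower according to the authors' deposited table, with a summed level of 124 FPKM in the knockout against 71.1 FPKM in the controls and a median log2 fold change of 0.83. The count and the median include Mpeg1, Emr1 and Itgam, all called higher, with 0.646, 0.762 and 0.735 FPKM in wild type. Every row exceeds 1.00 FPKM in a genotype, so these genes have a row only through the knockout. Islet markers had 13 of 17 called higher and summed to 4142 and 2582 FPKM (median 0.64). Of 13 stellate cell and fibroblast markers 8 were called higher (503 and 383 FPKM, median 0.40), and of 12 endothelial markers 5 (94.2 and 74.3 FPKM, median 0.38). None of these lists held a call lower or a marker listed at 0. The fold changes of Elovl5 and Fads3, 0.67 and 0.54 on the log2 scale, lie within the range that these marker lists span, and the part of those cell types in the changes was not tested. Of 7 duct markers 1 was called higher (239 and 219 FPKM, median 0.26), of 6 smooth muscle markers 5 were called lower (27.6 and 64.1 FPKM, median -1.18), of 4 liver and intestine markers 2 were called lower (37.1 and 34.2 FPKM, median -0.75), and the acinar markers had a median of -0.06. In the liver and intestine list the median and the summed level differ in direction because most of the sum is 1 gene, Ttr. Ttr was uncalled, with 34.7 FPKM in the knockout against 29.6 FPKM in the controls, while Alb, Apoa2 and Vil1 were lower. Alb, Apoa2 and the smooth muscle markers Actg2 and Cnn1, all called lower, have a row only through wild type. The uncalled islet marker Mafa and duct marker Car2 have one only through the knockout.

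**Figure D5:**
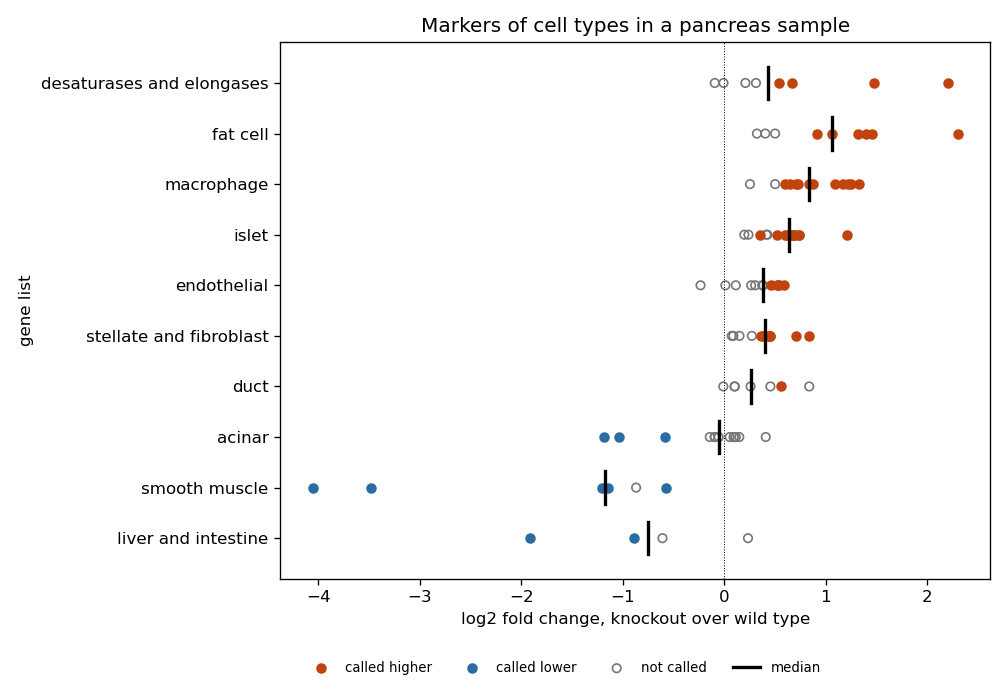
Log2 fold change, knockout over wild type, of the members (top row) and of the tested markers of each cell type, with called genes filled (orange higher, blue lower, in the authors' table) and medians as black bars. Fat cell, macrophage and islet medians lie at 1.06, 0.83 and 0.64, to the right of the members' 0.43.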

How the data were processed

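RNA was extracted from pancreas, with RNA integrity numbers between 8.20 and 9.10, and poly(A)-selected libraries were sequenced as single reads of 50 bases, per the labels' protocols. The build was GRCm38, with STAR 2.5.1b named beside Cufflinks 2.2.1 and Cuffdiff (all per the submitters' processing notes, which state no roles). Not given in the sources used here: annotation release, strand use, treatment of reads with several matches, Cuffdiff settings. The authors deposited 1 FPKM value per gene and genotype, combining 3 libraries, with the p-value, the q-value and a test statistic (a score) of Cuffdiff, per the file headers. Every row exceeds 1.00 FPKM in a genotype. A gene under this level in 1 genotype therefore has a row only through the other, and such a gene's change is partly what admits it. Depth is unknown, so no interval or detection floor is given.

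Log2 fold changes were recomputed from the FPKM values with no pseudocount. The fold change column deposited by the authors holds spreadsheet errors and was not used. Genes were called at the authors' q under 0.05, over the 11478 tested genes; no test was added, since the limma test planned for values of single mice needs columns that the table does not give. Genes under 0.01 FPKM in a genotype got no fold change, which left 11441. Starts in the table count from 0 and were shifted by 1. Named genes are the members, Tmem63a and the 4 genes of lowest p per pathway list, equal p being ordered by fold change; genes within 250 kb, and markers, were named after their values were seen. A few genes that this rule names are not reported here. Members and lists were chosen with earlier results of these data known. Calculations used Python 3.11.15 and pandas 2.3.3, and the adjustment, motif and sequence functions were tested on simulated data. No protein sequences were used here.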

Additional observations from a re-analysis of the deposited data

How the results depend on the processing

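Of the 4 members called higher, 3 were called with q under 0.01, 3 when a change of at least 1.5-fold was also required, 3 among genes with at least 5 FPKM in either genotype, and 4 with the Benjamini-Hochberg adjustment recomputed over all tested genes; 0 were called lower in each case. Elovl5 is lost at the stricter q, and Fads3 by the fold and level requirements. Elovl5 meets the level requirement only through the knockout, with 7.38 FPKM against 4.64 FPKM in wild type. Its rise therefore admits it, and the level requirement is no separate check of Elovl5. The members' median log2 fold change, 0.43, was 0.38 with a pseudocount of 0.5 FPKM, 0.31 with at least 5 FPKM, 0.46 centred on the median of all tested genes, and 0.30 when both groups were rescaled to equal sums outside the acinar list. That rescaling lowers every log2 fold change by 0.12 and puts the median of all tested genes at -0.16. It sets aside only the 13 acinar markers with a row, 27.0% of all FPKM in the knockout and 30.7% in wild type. Any acinar transcripts outside the list stay in the sums. Of 24 recomputed fold changes of single members, 23 kept their direction and 1 reversed: Fads1, from -0.0087 to 0.0243 when centred on the median. With 0.5 FPKM added to each value, the share of Scd1 in Scd1 plus Scd2 was 50.0% in the knockout and 38.3% in wild type, and that of Elovl5 in Elovl1 plus Elovl5 was 28.5% and 24.3%. No replicate could be left out, and no paired analysis was possible because the table gives 1 value per genotype. For the same reason no spread between mice stands behind any level. The authors' q-values are results of a test of the difference between genotypes and do not give that spread.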
